A study of Homo sapiens with 414 samples.

Results

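Dioxin was followed over 39 days of exposure in H1-NPC, neural progenitors derived from H1, an established line of human embryonic stem cells. All libraries with the compound label Dioxin were taken, 11 of the 266 libraries of the 29 toxic compounds, at 3 nM and 1 each on days 1, 2, 3, 4, 6, 8, 10, 15, 21, 27 and 39. They were set against every library of the 16 compounds labelled non-toxic, which make up the rest of the series. On these 11 days there were 16, 16, 16, 16, 15, 10, 15, 7, 11, 12 and 14 such non-toxic libraries. Those compounds were acetaminophen, amoxicillin, aspirin, DMSO, Ficoll 400, fructose, glucosamine, glycerol, glyphosate, ibuprofen, naproxen sodium, PEG 3350, PVP, saccharin, sorbitol and sucrose. Each well was seeded with the same line, received its compound on the seeding day and was lysed on the plate, and gene levels were given as TPM, a share of all transcripts corrected for gene length. The labels name neither the dioxin congener nor its vehicle. DMSO at 0.1% was 1 of the 16 non-toxic compounds. There was 1 Dioxin well a day and the labels do not say whether wells came from separate cultures, so every p-value measures only the spread between these wells. In such bulk RNA, fewer cells of a type and less RNA per cell cannot be told apart.

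Dioxins bind the aryl hydrocarbon receptor (AHR), a transcription factor held in the cytoplasm by chaperones until a ligand binds. The receptor then pairs with ARNT in the nucleus and binds DNA at xenobiotic response elements, whose core is GCGTG. Its best known targets are the CYP1 monooxygenases, the repressor AHRR, which competes with the receptor, and TIPARP, an ADP-ribosyltransferase that represses the receptor. In the developing nervous system the receptor is studied mainly because dioxins impair neural differentiation in animals.

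The Dioxin libraries held 13323 to 14141 genes at 1 TPM or more, against 11861 to 14260 in the non-toxic libraries. Neural progenitor markers (12 genes) summed to 3376 to 5989 TPM in the Dioxin libraries. The Dioxin sum lay below every non-toxic library of its day on days 1, 3, 15, 27 and 39 and within their range on the other 6 days. Of the 12 genes, only VIM lay below every non-toxic library on both of days 27 and 39. On days 1, 3 and 15 the Dioxin sum was 5989, 5055 and 3376 TPM, against at least 6092, 5439 and 3772 TPM. The Dioxin libraries of days 15 and 21 stood apart from every non-toxic library of their day. Their log2 deviations fell with transcript length, with slopes of -0.28 on both days per log2 of length, against -0.00498 to 0.0046 on day 15 and -0.0154 to 0.0147 on day 21 in non-toxic libraries. Their genes had median log2 deviations of -0.46 and -0.42. The slopes of the other 9 Dioxin libraries lay between -0.0602 and 0.079. Among them day 39 (-0.05) was below the non-toxic range of that day (-0.0253 to 0.0135), and days 1, 2, 4 and 8 lay outside their range by less. Of the non-toxic libraries, ibuprofen on day 8 had a slope of -0.444. Results are therefore given with and without days 15 and 21.

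**Figure D1:**
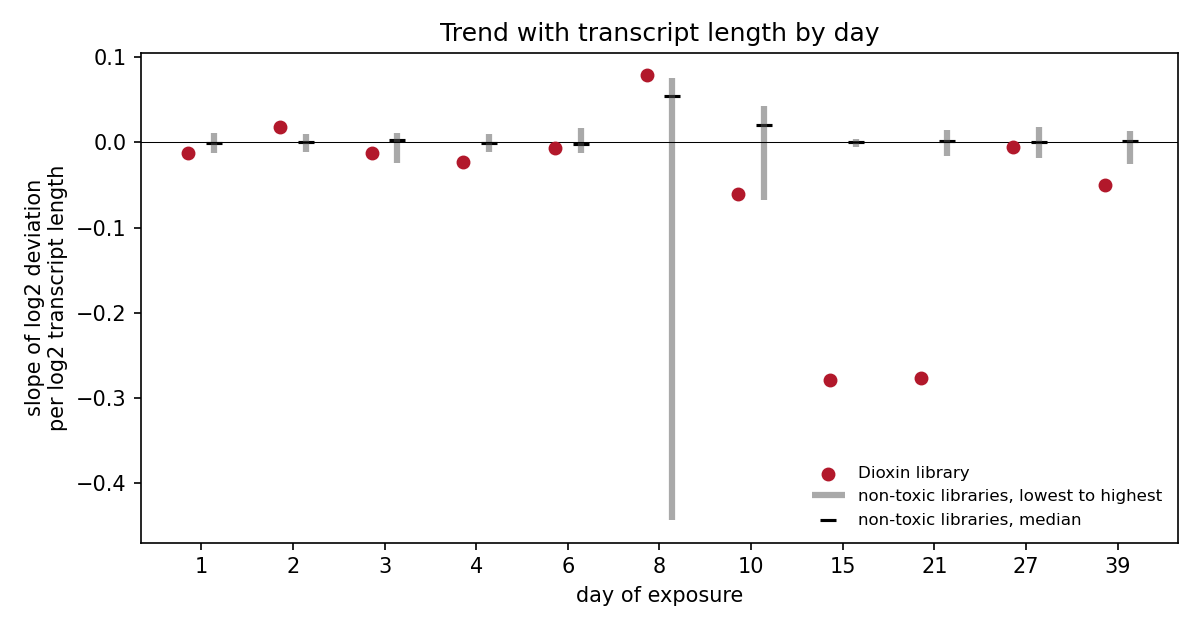
Slope of each library's log2 deviation from the non-toxic mean of its day against log2 transcript length (y axis) by day of exposure (x axis), with 1 red point per Dioxin library, a grey line over the range of the non-toxic libraries and a black dash at their median. The Dioxin points of days 15 and 21 lie at -0.28, and the day 8 grey line reaches -0.444 through the ibuprofen library.

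Few genes differed between Dioxin and non-toxic libraries once days 15 and 21 were left out, and those few included known AHR targets. Genes were tested in limma on log2(TPM + 1) with day as a factor and compounds as a random block, over 16318 genes, and were called at a Benjamini-Hochberg adjusted p under 0.05. Without days 15 and 21, 28 genes rose (0.172% of those tested) and 6 fell (0.0368%) over the other 9 days. Without the ibuprofen library of day 8 as well, 78 rose and 98 fell, and with each library's length slope as a covariate 0.846% of the genes tested were called. Over all 11 days 663 genes rose (4.06%) and 3294 fell (20.2%), but without the day 15 library 65 rose and 36 fell, and without the day 21 library 75 rose and 50 fell. Centring each library on its median turned that split into 1956 rises and 1789 falls, after a median shift of -0.0844 in genes of 10 TPM or more. The median log2 difference of those genes was -0.14 over days 8 to 39 and -0.00892 without days 15 and 21. Of the 34 genes called without days 15 and 21, 33 were also among the 3957 called over all days, which is 97.1% of the smaller list and 0.834% of the larger.

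Set against the rest of their class in the same way, without days 15 and 21, 12 of the 16 non-toxic compounds gave no call. Ibuprofen, with its day 8 library, gave 497 rises and 5355 falls, naproxen sodium 10 and 2, aspirin 3 and 2, and glyphosate 1 and 17. These comparisons and the Dioxin ones share the non-toxic libraries.

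The promoters of AHRR, TIPARP and CYP1A1 are shown for the core sequence the receptor is known to bind, since all 3 genes are AHR targets whose values follow. The windows below run from 250 bases before to 50 bases after a RefSeq gene start (GRCh38.p14) and are written in the direction of the gene. Capitals mark GCGTG or its reverse complement CACGC. AHRR has the windows chr5:321464-321763 and chr5:322360-322659, both on the plus strand, TIPARP has chr3:156674340-156674639 on the plus strand as the first of its 3 windows, and CYP1A1 has chr15:74725479-74725778 on the minus strand.
AHRR, first window: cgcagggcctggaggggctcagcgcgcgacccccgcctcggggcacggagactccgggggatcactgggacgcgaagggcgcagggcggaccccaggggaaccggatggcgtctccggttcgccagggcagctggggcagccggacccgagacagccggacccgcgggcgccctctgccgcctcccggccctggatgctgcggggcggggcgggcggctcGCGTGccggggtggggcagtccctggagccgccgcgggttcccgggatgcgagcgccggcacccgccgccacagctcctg
AHRR, second window: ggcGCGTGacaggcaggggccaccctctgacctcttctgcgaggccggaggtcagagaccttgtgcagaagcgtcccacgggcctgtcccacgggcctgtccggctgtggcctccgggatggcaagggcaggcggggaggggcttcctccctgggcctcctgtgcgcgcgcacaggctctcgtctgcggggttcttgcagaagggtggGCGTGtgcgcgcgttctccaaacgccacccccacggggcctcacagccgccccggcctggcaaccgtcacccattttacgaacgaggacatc
TIPARP, first window: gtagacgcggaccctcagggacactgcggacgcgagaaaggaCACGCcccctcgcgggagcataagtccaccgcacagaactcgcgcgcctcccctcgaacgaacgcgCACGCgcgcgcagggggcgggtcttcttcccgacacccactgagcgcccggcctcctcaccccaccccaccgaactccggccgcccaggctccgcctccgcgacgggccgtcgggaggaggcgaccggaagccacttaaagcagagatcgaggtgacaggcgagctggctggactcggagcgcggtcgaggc
CYP1A1: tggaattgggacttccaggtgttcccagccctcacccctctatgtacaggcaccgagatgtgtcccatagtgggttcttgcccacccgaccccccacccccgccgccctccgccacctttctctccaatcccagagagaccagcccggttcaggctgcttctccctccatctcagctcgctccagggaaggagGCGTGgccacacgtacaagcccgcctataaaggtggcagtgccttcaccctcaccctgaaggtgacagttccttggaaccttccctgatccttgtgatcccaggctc
The match in the first AHRR window begins at position -30 from the gene start and is the longer form TNGCGTG. The matches of the second AHRR window begin at -247 and -42, those of the first TIPARP window at -208 and -142, and that of CYP1A1 at -57. The other windows of TIPARP, not printed, hold no GCGTG on either strand. GCGTG occurs on either strand in 36.5% of 35116 such windows and TNGCGTG, which contains it, in 5.51%, so a match is a description of these letters.

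CYP1B1 and AHRR were higher in Dioxin libraries, most of all on days 27 and 39. CYP1B1 encodes the CYP1 monooxygenase that acts on polycyclic aromatics and estrogens. It had 22.6, 8.52, 10.4, 2.40 and 1.54 TPM in the Dioxin libraries of days 1, 2, 3, 4 and 6, against non-toxic medians of 14, 8.09, 4.28, 2.555 and 1.72 TPM. From day 8 on it had 2.22, 3.06, 3.83, 9.37, 55.1 and 51.5 TPM in the Dioxin libraries of days 8, 10, 15, 21, 27 and 39, against medians of 2.53, 1.74, 3.46, 6.70, 15.15 and 17.8 TPM. The Dioxin library lay above every non-toxic library on days 1, 3, 10, 27 and 39, and within their range on the other 6 days. The highest non-toxic values were 19.35, 5.79, 2.72, 37 and 28.6 TPM on those 5 days. Without days 15 and 21 the log2 difference was 0.62 ± 0.13 (SE; limma adjusted p = 0.00401; 9 Dioxin libraries, 130 non-toxic).

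AHRR, the repressor of the receptor, had 2.74, 2.13, 2.45, 2.03 and 2.18 TPM in the Dioxin libraries of days 1 to 6, against medians of 2.59, 1.655, 1.66, 1.25 and 1.66 TPM in the non-toxic libraries. On days 8, 10, 15 and 21 it had 2.58, 1.79, 2.09 and 6.03 TPM in Dioxin libraries, against medians of 2.03, 2.38, 2.77 and 5.04 TPM. It reached 17.3 TPM on day 27 and 33.2 TPM on day 39 in the Dioxin libraries, against 3.51 to 6.54 TPM and 2.67 to 5.24 TPM in the non-toxic libraries. The Dioxin library lay above every non-toxic library on days 2, 3, 27 and 39, by the widest margin on days 27 and 39, and below every one on day 15. On the other days it lay within their range. The log2 difference without days 15 and 21 was 0.66 ± 0.11 (limma adjusted p = 0.000439). Later days exceeded early days by 0.85 ± 0.20 for AHRR (limma adjusted p = 0.0418), also without days 15 and 21, whereas for CYP1B1 that contrast was 0.59 ± 0.23 (limma adjusted p = 0.522).

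Over days 1 to 6 alone the differences of CYP1B1 and AHRR were 0.36 ± 0.12 and 0.29 ± 0.09 (limma adjusted p = 0.0892 and 0.0938). Without the day 39 library the 9-day differences were 0.51 for CYP1B1 (limma adjusted p = 0.164) and 0.40 for AHRR (limma adjusted p = 0.111). Without the day 27 library they were 0.48 (limma adjusted p = 0.158) and 0.54 (limma adjusted p = 0.0258). Against the DMSO libraries alone they were 0.70 and 0.65 (limma adjusted p = 0.479 and 0.492).

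**Figure D2:**
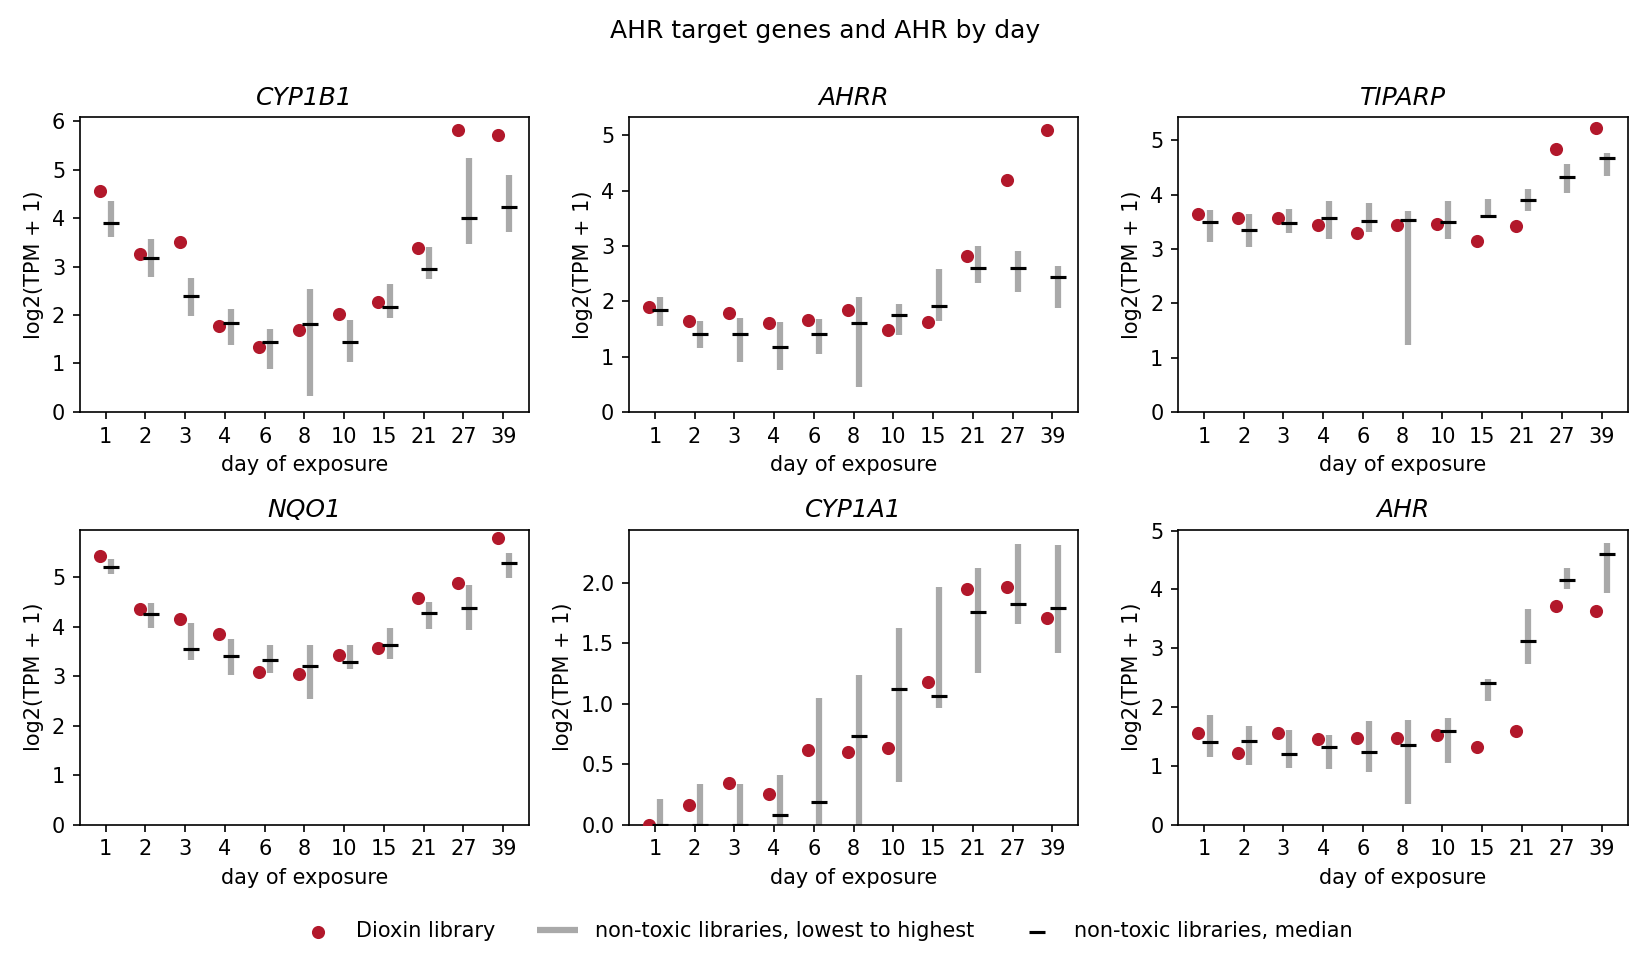
Level of 5 AHR target genes and of AHR, as log2(TPM + 1) on the y axis, by day of exposure on the x axis, with 1 red point per Dioxin library, a grey line from the lowest to the highest non-toxic library and a black dash at their median. On days 27 and 39 the red points of CYP1B1, AHRR, TIPARP and NQO1 lie above the grey line, those of CYP1A1 within it and those of AHR below it.

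Other AHR targets followed on days 27 and 39 only in part. These days were singled out after the values were seen, so the 2 Dioxin and 26 non-toxic libraries of days 27 and 39 give a description with its p-values rather than an independent test. Among them 182 genes rose (1.12%) and 305 fell (1.87%), against 0 to 6 calls for each of the 12 non-toxic compounds with both days. TIPARP had 27.7 and 36.35 TPM in the Dioxin libraries of days 27 and 39, against 15.25 to 22.75 TPM and 19.2 to 26.3 TPM in the non-toxic libraries (log2 difference 0.55 ± 0.10, limma adjusted p = 0.00214). ALDH3A1, an aldehyde dehydrogenase, had 1.86 and 2.37 TPM in the Dioxin libraries, against at most 0.79 and 1.92 TPM (0.98 ± 0.22, limma adjusted p = 0.0137). NFE2L2, the transcription factor of the antioxidant response, had 54.7 and 101.7 TPM in the Dioxin libraries, against at most 42.1 and 54.1 TPM (0.82 ± 0.10, limma adjusted p = 1.5e-05). NQO1, a quinone reductase, had 28.4 and 54.4 TPM in the Dioxin libraries, against 14.2 to 27.45 TPM and 30.7 to 44.1 TPM, and did not pass (0.51 ± 0.15, limma adjusted p = 0.0573). All 4 lay above every non-toxic library on both days.

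Of the 15 AHR targets listed, 12 had enough signal to be tested. With CYP1B1 and AHRR, 5 of the 12 rose on days 27 and 39 and none fell, and 7 of 12 exceeded every non-toxic library on both days, against 2.44% of all genes tested. The median log2 difference of the 12 was 0.38, against -0.0163 over all genes. Without the day 39 library only AHRR and NFE2L2 of the list rose on these days, and without the day 27 library CYP1B1, AHRR, TIPARP and NFE2L2 did. In the 9-day comparison without days 15 and 21, 2 of 12 rose, with a median of 0.17, against -0.00843 over all genes.

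CYP1A1, the gene most often used to read AHR activity, did not pass the test in any of these comparisons. It had 2.90 and 2.26 TPM in the Dioxin libraries of days 27 and 39, against medians of 2.545 and 2.46 TPM, and a log2 difference of 0.02 ± 0.08 without days 15 and 21 (limma adjusted p = 1). On day 3 it had 0.27 TPM, against a non-toxic maximum of 0.26 TPM, near the lower limit of the table. CYP1A2 had 1.48 and 0.77 TPM in the late Dioxin libraries, against 0.48 to 1.55 TPM and 0.25 to 1.17 TPM. UGT1A6 and UGT1A1, glucuronosyltransferases, were listed at 0 in all libraries of days 21, 27 and 39 of either group.

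AHR itself was lower in the late Dioxin libraries. It had 12.15 and 11.4 TPM on days 27 and 39, against 15.1 to 19.6 TPM and 14.3 to 26.7 TPM in the non-toxic libraries, and fell by 0.67 ± 0.16 on the log2 scale over these days (limma adjusted p = 0.0208). On days 1 to 10 it lay between 1.32 and 1.95 TPM in Dioxin libraries and overlapped the non-toxic range. On days 15 and 21 it had 1.49 and 2.01 TPM in the Dioxin libraries, against 3.30 to 4.55 TPM and 5.62 to 11.7 TPM. AHR was the only 1 of 9 receptor complex genes called on days 27 and 39, where 1.12% of all genes rose and 1.87% fell. None was called without days 15 and 21, where 0.172% of all genes rose and 0.0368% fell over the 9 days. In a list of this size a count of 0 is near the background. Without the day 39 library its late difference was -0.46 (limma adjusted p = 0.589). ARNT, the partner of the receptor, was low in the Dioxin libraries of days 15 and 21 (7.05 and 9.76 TPM, against at least 15.6 and 17.5 TPM) and within the non-toxic range on days 27 and 39. The Dioxin libraries of days 15 and 21 had the trend over transcript length. In them 54.9% and 54.4% of all genes tested lay below every non-toxic library, so low AHR and ARNT there was shared with most genes.

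Beside the other toxic compounds the late levels of some AHR targets were high. AHRR and TIPARP were highest in the Dioxin library among the 34 libraries of day 27 and the 36 of day 39. For AHRR the next were U0126, an inhibitor of the MEK kinases, with 7.81 TPM on day 27, and hydroxyurea, an inhibitor of ribonucleotide reductase, with 14.9 TPM on day 39. CYP1B1 was highest in Dioxin on day 27, with 55.1 TPM against 49.75 TPM in hydroxyurea, and on day 39 hydroxyurea had 54.9 TPM. Hydroxyurea had the higher CYP1B1 level on every day but 1 and 27, as on days 6, 10 and 15 with 1.54, 3.06 and 3.83 TPM in Dioxin, against 7.56, 15.05 and 16.02 TPM. NQO1 in Dioxin was 9th of 34 on day 27 and below lead acetate on both late days (28.4 and 54.4 TPM, against 137.7 and 105.1 TPM). U0126 was chosen for a direct comparison because it is also known as an AHR agonist. Between Dioxin and U0126 over 10 shared days, 324 genes were called (1.99%). CYP1B1 was higher in Dioxin than in U0126 by 1.19 ± 0.25 (limma adjusted p = 0.0346), and AHRR differed by 0.26 ± 0.16 (limma adjusted p = 0.458), which does not show that they act alike.

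**Figure D3:**
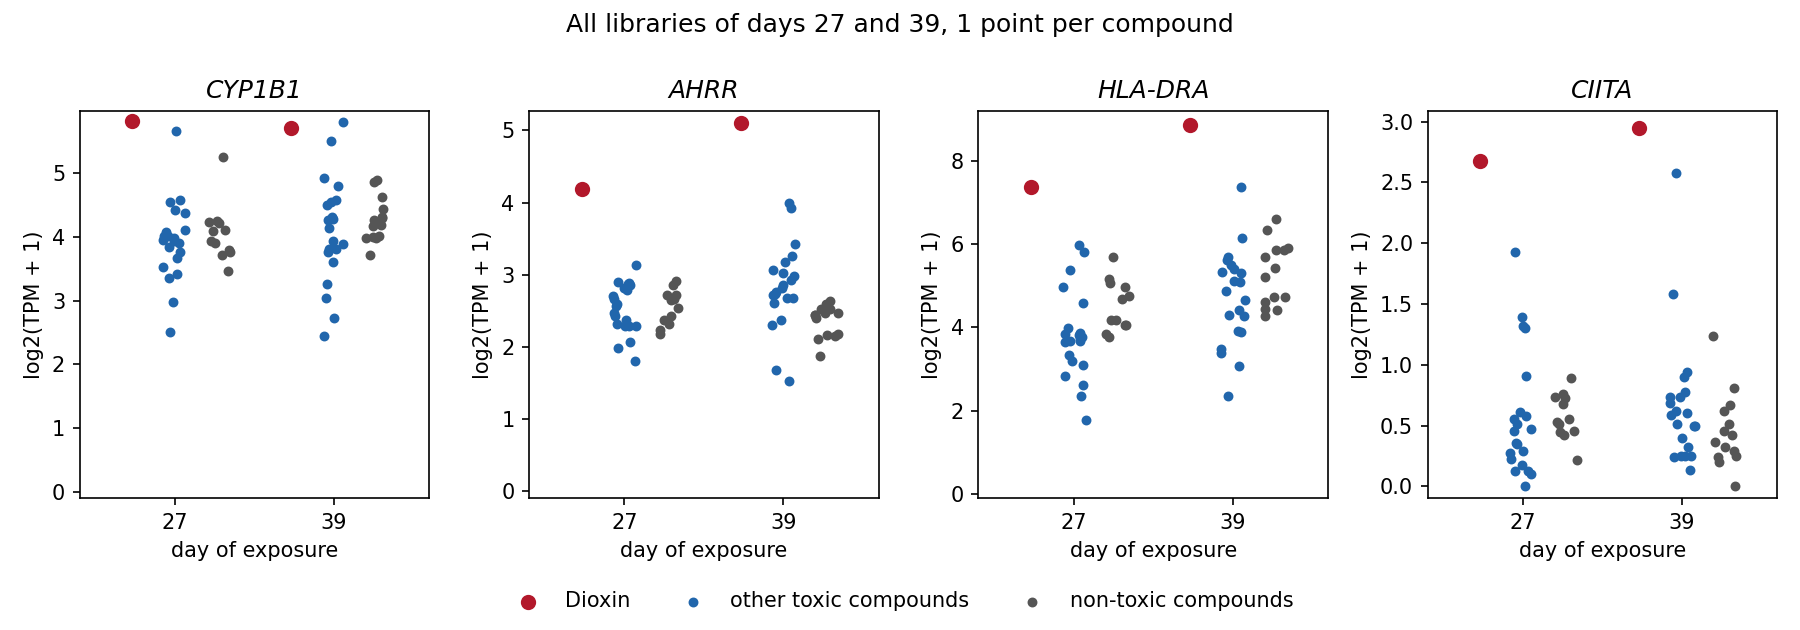
Level of CYP1B1, AHRR, HLA-DRA and CIITA as log2(TPM + 1) on the y axis in all libraries of days 27 and 39 (x axis), with 1 point per compound, Dioxin in red, the other toxic compounds in blue and the non-toxic compounds in grey. Dioxin is the highest point in each panel except CYP1B1 on day 39, where hydroxyurea has 54.9 TPM.

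Large late changes were seen in the genes of MHC class II, the molecules that present peptides to CD4+ T cells, and in CIITA, the coactivator that switches these genes on. CIITA had 5.39 and 6.69 TPM in the Dioxin libraries of days 27 and 39, against 0.16 to 0.85 TPM and 0 to 1.36 TPM in the non-toxic libraries. Its log2 difference was 2.29 ± 0.19 on these days (limma adjusted p = 9.79e-09) and 0.55 ± 0.11 over the 9 days without days 15 and 21 (limma adjusted p = 0.00234). Of 8 tested transcription factors of class II, CIITA alone lay above every non-toxic library on both late days, and CREB1 lay below every one. Of all genes tested 2.44% lay above and 2.83% below. HLA-DRA, the alpha chain of HLA-DR, had 21.3, 162.8 and 458.5 TPM in the Dioxin libraries of days 21, 27 and 39, against non-toxic ranges of 5.97 to 21.1, 12.7 to 50.9 and 18.3 to 95.4 TPM. CD74, the invariant chain that guides class II molecules through the cell, had 26.9, 125.2 and 451.3 TPM in those libraries, against 1.43 to 12.65, 2.56 to 26.7 and 6.61 to 67.4 TPM. Both genes also had higher non-toxic levels late in culture, with medians of 39.0 TPM for HLA-DRA and 24.2 TPM for CD74 on day 39. The values of day 21 come from a Dioxin library with the trend over transcript length.

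All 11 tested members of the class II list rose on days 27 and 39, with a median log2 difference of 3.02, and all 11 were higher in the Dioxin library than in any library of either day. The list was drawn up after these values were seen, so its count is a description. Hydroxyurea also lay above every non-toxic library on both days for HLA-DRA (54.8 and 162.7 TPM), CD74 (41.8 and 125.4 TPM) and CIITA (1.46 and 4.95 TPM). HLA-DRB1 had 59.97 and 217.6 TPM in the Dioxin libraries, against at most 15.5 and 41.65 TPM. HLA-DQA1 had 3.02 and 40.5 TPM, against at most 1.54 and 2.46 TPM. HLA-DMA, part of the peptide loader HLA-DM, had 18.3 and 43.7 TPM, against at most 14.9 and 16.98 TPM. The HLA-DRB genes are near-identical copies and allele sequences differ from the reference, so the split of reads between HLA-DRB1 and HLA-DRB5 is uncertain. Over days 1 to 6 none of the 11 was called, a count near the background, since 0.349% of all genes rose and 1.38% fell.

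Alone, the day 27 library gave log2 differences of 3.44 for CD74, 2.81 for HLA-DRA and 2.09 for CIITA. The day 39 library alone gave 4.49, 3.56 and 2.49. The class II calls, more than the size of these differences, rested on the day 39 library, whose length slope lay below the non-toxic range. The part of that slope was not tested. Without it, none of the 11 class II genes passed on day 27 alone (CD74 3.44, limma adjusted p = 0.208; HLA-DRA 2.81, limma adjusted p = 0.0791), while CIITA did (2.09, limma adjusted p = 4.59e-05). With the day 39 library alone, all 11 and CIITA rose. In the 9-day comparison without days 15 and 21 the class II genes HLA-DRA, HLA-DQA1 and HLA-DRB5 rose, by 0.89, 0.71 and 0.71 on the log2 scale. The later days exceeded the early ones by 1.39 ± 0.32 for HLA-DRA and 1.06 ± 0.18 for CIITA (limma adjusted p = 0.0287 and 0.000119). Across the genome 23 genes had a higher difference in later than in early days (0.141%) and 2 a lower one (0.0123%) without days 15 and 21.

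Genes that interferon is known to raise were looked at beside class II. None of 12 MHC class I genes and none of 15 interferon response genes was called in limma on days 27 and 39, with median log2 differences of 0.25 and 0.22, both lists again drawn up after the values were seen. With 1.12% of all genes rising on these days, a count of 0 in lists of this size is near the background. IFITM2 and IFITM3, which interferon also raises, rose over the 9 days without days 15 and 21. B2M, the light chain of class I, had 929 and 1693 TPM in the Dioxin libraries, against 701 to 1031 TPM and 983 to 1649 TPM. IFIT3 was above the non-toxic range on both days, with 13.8 and 14.8 TPM against at most 12.7 and 10.75 TPM. From the day 39 library alone, HLA-F and IFNGR2 of these lists rose.

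Cells that carry class II in the body were sought by their own markers. The 8 microglia and macrophage markers summed to 5.21 and 2.82 TPM in the Dioxin libraries of days 27 and 39, against 2.98 to 7.60 TPM and 2.51 to 5.10 TPM in the non-toxic libraries. CSF1R, CX3CR1, ITGAM, TYROBP and AIF1 were listed at 0 in both Dioxin libraries, PTPRC had 0 and 0.09 TPM, and CD68 made up nearly all of the sum. The 7 endothelial markers summed to 14.2 and 10.9 TPM in the Dioxin libraries, against at most 13.9 and 8.63 TPM, of which CLDN5 had 9.19 and 8.33 TPM and the defining markers PECAM1 and CDH5 were at 0.47 TPM or less. The part of endothelial cells in the result was not tested.

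The promoter of CD74 is shown for the CCAAT box, which in class II promoters is the site of NF-Y. The window is chr5:150412861-150413160 on the minus strand of GRCh38.p14 (RefSeq), capitals mark CCAAT, and the match begins at -53.
CD74: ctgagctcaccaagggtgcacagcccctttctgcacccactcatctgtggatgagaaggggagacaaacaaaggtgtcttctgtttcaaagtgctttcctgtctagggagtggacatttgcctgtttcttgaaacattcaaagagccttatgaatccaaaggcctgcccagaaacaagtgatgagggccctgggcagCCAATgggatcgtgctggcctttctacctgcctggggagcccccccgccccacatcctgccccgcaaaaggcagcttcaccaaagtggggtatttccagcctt
CCAAT occurs on either strand in 34.6% of the 35116 windows.

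**Figure D4:**
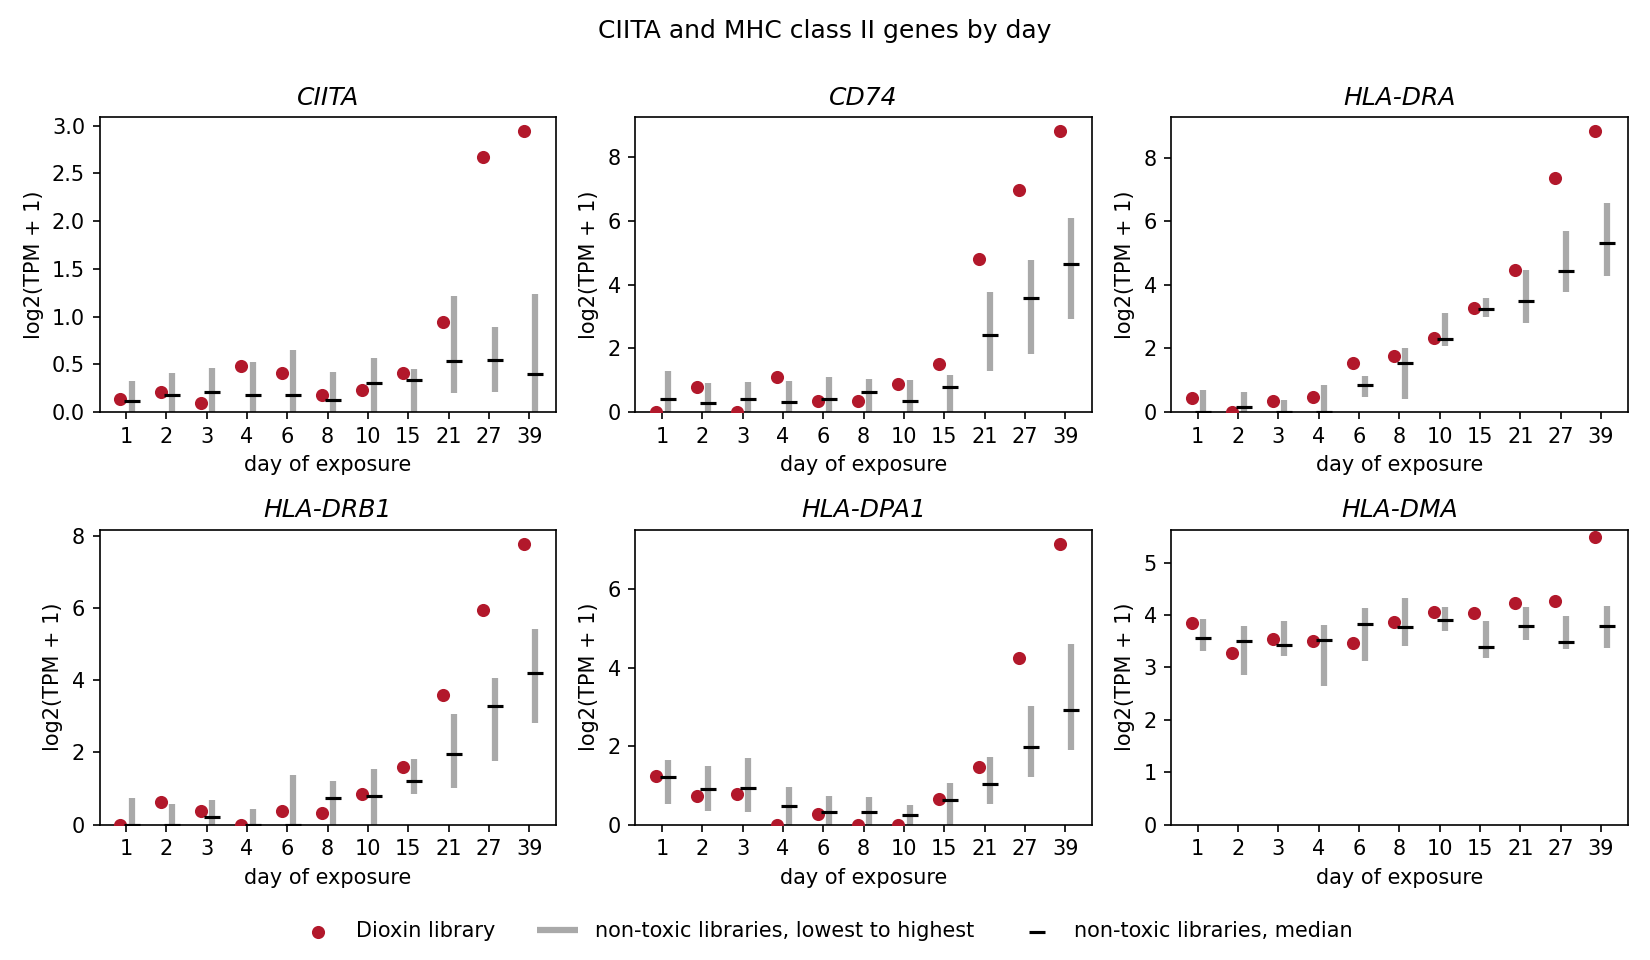
Level of CIITA and 5 MHC class II genes, as log2(TPM + 1) on the y axis, by day of exposure on the x axis, with 1 red point per Dioxin library, a grey line from the lowest to the highest non-toxic library and a black dash at their median. The red points of all 6 genes lie above the grey lines on days 27 and 39, with CD74 at 451.3 TPM on day 39 against at most 67.4 TPM.

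The other genes called without days 15 and 21 differed in how many days set them apart. Of the 28 genes that rose, 27 lay above every non-toxic library on day 27 and 26 on day 39, which describes genes chosen by a fit that holds these libraries. GREM1, a secreted BMP antagonist, lay above every non-toxic library on these 2 days alone, with 94.9 and 76.1 TPM in the Dioxin libraries of days 27 and 39, against at most 31.25 and 39.9 TPM. ANPEP, the aminopeptidase CD13, had 5.84 and 4.96 TPM in these libraries, against at most 1.24 and 1.40 TPM. SCNN1B, a subunit of the epithelial sodium channel, had 4.36 and 29.97 TPM, against at most 1.99 and 7.19 TPM. QPCT, glutaminyl cyclase, had 36.2 and 47.01 TPM, against at most 22.7 and 29.5 TPM, and lay above the non-toxic mean on 10 of 11 days. MMP27 and HOXB8 were called at trace levels, MMP27 with 0.26 and 0.28 TPM where every non-toxic library of these days is listed at 0.

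The retinoid genes CRABP1 and LRAT, with IFITM2 and IFITM3, differed over more of the time course. CRABP1, a cytoplasmic retinoic acid binding protein, had 889.5 TPM in the Dioxin library of day 1, 465 TPM on day 10 and 383.2 TPM on day 39, against at most 843.5, 416.7 and 257.2 TPM in the non-toxic libraries. It lay above every non-toxic library on 8 of 11 days, counted with days 15 and 21, whose libraries had a trend over transcript length. Its log2 difference was 0.15 ± 0.04 over days 1 to 6 (limma adjusted p = 0.0328) and 0.50 ± 0.11 over days 8 to 39 without days 15 and 21 (limma adjusted p = 0.0355). LRAT, which esterifies retinol for storage, had 2.90 and 2.49 TPM on days 27 and 39, against at most 1.70 TPM on either day, and rose by 0.38 ± 0.08 over the 9 days (limma adjusted p = 0.00401). Of the 14 genes of the retinoic acid list, these 2 rose over the 9 days, where 0.172% of all genes rose. None of the 14 fell, where 0.0368% of all genes did. The median of the list was 0.0259, against -0.00843 over all genes. ALDH1A3 joined CRABP1 and LRAT on days 27 and 39, where 1.12% of all genes rose. RARB and STRA6 of this list lay below every non-toxic library on both of these days. From the day 27 library alone no member was called, and from that of day 39 DHRS3, CRABP1 and ALDH1A3 rose and STRA6 fell. IFITM2 and IFITM3, membrane proteins that restrict virus entry, rose by 0.41 ± 0.09 and 0.35 ± 0.07 (limma adjusted p = 0.00609 and 0.00517). IFITM3 had 426.2, 653.7 and 623.3 TPM in the Dioxin libraries of days 10, 27 and 39, against at most 399.5, 605.5 and 584.4 TPM. In the libraries of days 15 and 21, which had that length trend, it had 1158 and 1009 TPM, against at most 618.3 and 547.3 TPM.

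IGF2, an insulin-like growth factor, fell by 0.61 ± 0.11 on the log2 scale over the 9 days (limma adjusted p = 0.0013). It had 1.11, 1.34, 13.4 and 15.1 TPM in the Dioxin libraries of days 8, 10, 27 and 39, below the lowest non-toxic values of 1.45, 1.73, 14.7 and 39.1 TPM. APOE, the lipid carrier made by astrocytes, fell by 0.37 ± 0.09 (limma adjusted p = 0.0434), with 86.04 TPM on day 27, against at least 144.8 TPM. On day 39 APOE had 158.5 TPM, level with the lowest non-toxic library. ASS1, argininosuccinate synthase, fell by 0.28 ± 0.05 (limma adjusted p = 0.000153), with 78.5 and 114.7 TPM on days 27 and 39, against at least 111.1 and 132.9 TPM. EFNB1, GSN and MTRNR2L3 also fell, by 0.14, 0.20 and 0.25. MTRNR2L3 resembles the mitochondrial 16S gene, so its reads are uncertain.

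**Figure D5:**
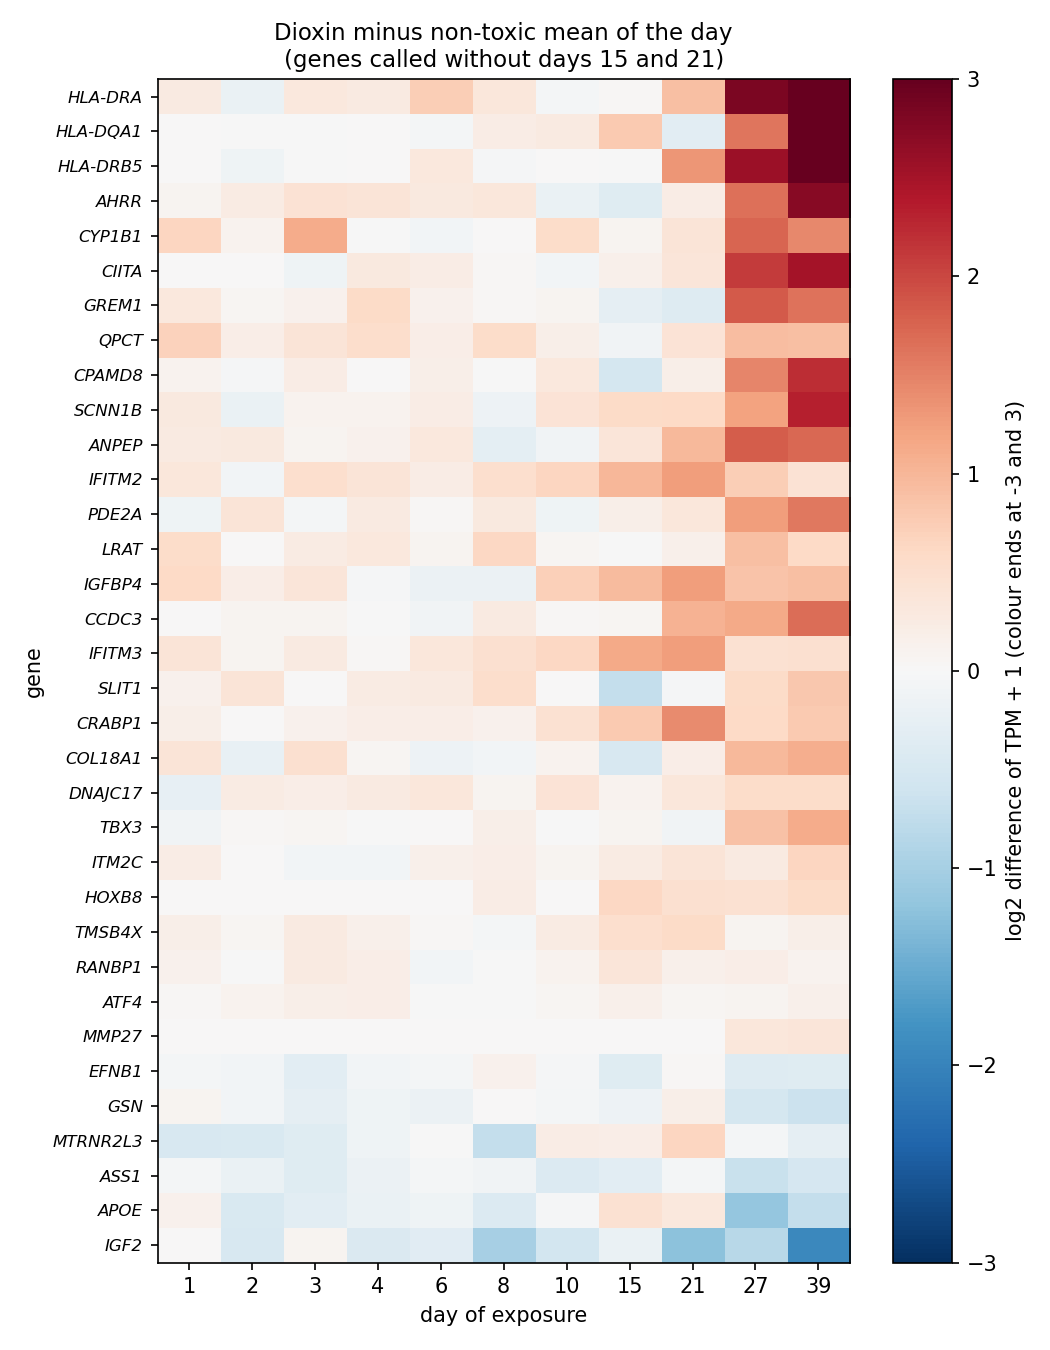
The 34 genes called without days 15 and 21 (y axis, ordered by log2 difference) on each of the 11 days (x axis), coloured by the Dioxin library's log2 difference from the non-toxic mean of the day, red above and blue below. The medians lie farthest from 0 on days 27 and 39, days that were part of the fit by which these genes were chosen.

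The calls of this comparison rested on the late libraries. Without the day 39 library 1 gene fell (ASS1) and none rose, without the day 27 library 6 rose and 3 fell, and 1 and 8 of the 34 calls were kept. Leaving out any other day kept 27 to 34. Days 1 to 10 alone, with 7 Dioxin libraries, gave no call in limma, with 612 genes at an unadjusted p under 0.05. Over days 8 to 39 without days 15 and 21, 20 genes rose (0.123%) and 3 fell (0.0184%), all 23 among the 487 called on days 27 and 39, and 596 had an unadjusted p under 0.05. Those 23 included WFDC1, a secreted whey acidic domain protein, with 33.9 and 32.03 TPM in the Dioxin libraries of days 27 and 39, against at most 14.3 and 10.5 TPM. CCDC3, a secreted protein, had 72.9 and 83.2 TPM on these days, against at most 39.1 and 33.4 TPM.

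Genes of the neural lineages also differed on days 27 and 39. CPLX1, a complexin that controls vesicle fusion, had 76.9 and 157.6 TPM in the Dioxin libraries, against at most 30.4 and 41.5 TPM (1.87 ± 0.14, limma adjusted p = 2.1e-09). It rose from either late library alone (1.61 from day 27 and 2.14 from day 39), while none of 12 synaptic genes listed was called. GAD1 and SLC32A1, the GABA synthesising enzyme and the vesicular GABA transporter, fell by 0.26 and 0.34, as 2 of 6 GABAergic genes, where 1.87% of all genes fell. OLIG2, a transcription factor of the oligodendrocyte lineage, fell by 0.94 ± 0.25 (limma adjusted p = 0.0309), with 6.18 and 5.06 TPM in the Dioxin libraries, against at least 7.27 and 6.20 TPM. The 8 oligodendrocyte lineage markers summed to 75.2 and 83.5 TPM in the Dioxin libraries, within the non-toxic range on both days. Of these 8, OLIG2 and CSPG4 lay below every non-toxic library on both days. VIM, the intermediate filament of progenitors, fell by 0.35, with 2086 and 3185 TPM, against at least 2345 and 3819 TPM. In the S phase list MCM4, TYMS and GINS2 rose, 3 of 14, where 1.12% of all genes rose, with a list median of 0.21. None of the 3 was called from either late library alone, and CCNE2 of this list fell from that of day 39. ID2 and ID4, inhibitors of bHLH factors, fell as 2 of 9 BMP and ID genes, while MSX2 of this list lay above every non-toxic library on both days without being called. The 12 progenitor markers summed to 4233 and 4854 TPM in the Dioxin libraries of these days, against 4387 to 4936 TPM and 5381 to 6306 TPM, below the non-toxic range on both. VIM made up 2086 and 3185 TPM of these sums and was the only 1 of the 12 below every non-toxic library on both days. The 11 astrocyte markers summed to 5131 and 8210 TPM in the Dioxin libraries, within the non-toxic range on both days. The 12 mesenchymal and matrix markers summed to 7521 and 6568 TPM, also within that range on both days. The 7 pluripotency markers summed to 21.2 and 17.35 TPM, against 16.65 to 22.4 TPM and 8.58 to 15.96 TPM. The 7 neural crest markers summed to 255.3 and 180.9 TPM, against at least 260.3 and 198.6 TPM, and the 12 pan-neuronal markers to 8498 and 6501 TPM, against at least 8074 and 6578 TPM. The part of such shifts in cell makeup in the late calls was not tested. Over these days 2.83% of all genes tested lay below every non-toxic library on both days.

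Early differences were small, and the part of the length slopes of days 1, 2 and 4 in them was not tested. Over days 1 to 6, 57 genes rose (0.349%) and 225 fell (1.38%), and 2153 had an unadjusted p under 0.05. DMSO set against the other non-toxic compounds over the same days gave 33 rises and 160 falls, the highest of the 16. Centring on the library median gave 90 rises and 67 falls. Of the 282 genes called early, 6 were among the 34 called over the 9 days, which is 2.13% and 17.6% of the lists. EIF5B, a translation initiation factor, averaged 82.3 ± 4.91 TPM in the Dioxin libraries and 71.1 ± 6.47 TPM in the non-toxic ones (SD over 5 days; 0.21 ± 0.04, limma adjusted p = 0.000585). ATF4, the transcription factor of the amino acid response, rose by 0.10 ± 0.02 (limma adjusted p = 0.00127), the only 1 of 12 genes of its list. NEUROD1, DLL1 and NHLH1, of 13 neurogenic genes, fell by 0.29, 0.13 and 0.09. NEUROD1, a proneural factor, had 6.78 and 8.41 TPM in the Dioxin libraries of days 4 and 6, against at least 8.47 and 9.88 TPM. NOTCH1 and VIM, of 12 progenitor genes, fell by 0.18 and 0.08. No AHR target and no gene of the receptor complex was called early.

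The longest lists came from the fits that keep days 15 and 21. Over days 8 to 39, 891 genes rose (5.46%) and 3166 fell (19.4%), and without the day 21 library 58 and 26 did. Of the 10 genes with the highest rise in that fit, CD74, HLA-DRB1, HLA-DRA, HLA-DQA1 and WFDC1 were high on days 27 and 39. TEX101, a germ cell glycoprotein, instead had 854.5 TPM in the Dioxin library of day 15, against at most 70.1 TPM, but 54.35 TPM on day 27, against 44.2 to 64.8 TPM. POU3F4, a neural POU factor, fell by 1.03 over days 8 to 39. Without days 15 and 21 its 9-day difference was -0.04 (limma adjusted p = 1). EGFR, the epidermal growth factor receptor, fell by 0.52 over all days but differed by -0.11 without days 15 and 21 (limma adjusted p = 1). The length trend of these 2 libraries moves with these calls: with each library's slope as a covariate, 696 genes rose and 71 fell over all days. Of 56 genes checked one by one over all days under that covariate, 3 turned sign, 4 lost their call and 4 gained one.

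The genes most like CYP1B1 in their deviations over the 11 Dioxin days, among 3956 called over all days, were COL18A1 (Pearson r = 0.928), ADAMTS15 (0.925), ELN (0.88), HAUS8 (0.841) and WFDC1 (0.826). COL18A1, a basement membrane collagen, had 87.9 and 73.8 TPM in the Dioxin libraries of days 27 and 39, against at most 57.2 and 39.3 TPM. These points share the 11 libraries, and days 27 and 39 set the highest values.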

How the data were processed

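The authors deposited a table of TPM values for 19084 gene symbols, with a column for each library. Of the symbols, 159 are 0 throughout, and column sums lie between 999999.07 and 1000001.05. RSEM 1.2.1, CASAVA 1.8.2 and Bowtie 0.12.8 are named, without roles, in the submitters' processing notes, with build hg19. Per the labels' protocols RNA was purified with a Qiagen kit and made into TruSeq libraries. Read counts were not used here, so the depth per library is unknown and no count test was run. TPM is relative, so a gene's value also moves with the rest of its library.

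Genes with at least 1 TPM in 5 libraries of the series (16318) were tested on log2(TPM + 1) with limma 3.58.1 and statmod 1.5.0 in R 4.3.3, with day as a factor, compound as a random block with its correlation estimated in each comparison, a variance trend, and Benjamini-Hochberg adjustment over all genes tested. Fold changes on this scale understate changes of low genes. The Dioxin and non-toxic libraries were compared over all days, days 1 to 6 and days 8 to 39, with and without days 15 and 21, and as later minus early days. Where a comparison holds 1 Dioxin library, that library is assumed to vary like the non-toxic ones. Transcript length came from GENCODE 29 for 10261 of 10328 genes at a mean of 10 TPM or more (99.4%). Alternatives changed the pseudocount, the filter, the centring, the block, the trend, the controls and the libraries. Named genes are the 10 with the largest differences in each direction among called genes whose mean reached 1 TPM in Dioxin or non-toxic libraries and whose sign held on 80% of days or more, plus AHR genes and up to 4 members of each other list with the largest difference. The members and lists were chosen with earlier results of these data known, and days 27 and 39 and the MHC and interferon lists after the values were seen. On simulated data 99% of genes changed by 0.5 (log2) were recovered over all days, 89% over days 1 to 6 and 88% over days 8 to 39. Those data had independent noise, the same change on every day and no length trend, unlike the real libraries. The comparisons without days 15 and 21 and that of days 27 and 39 were not simulated, so recovery there is unknown. Genes outside this rule, such as CPLX1, GREM1 and B2M, were chosen after their values were seen. Promoters came from RefSeq (GRCh38.p14). Figures were drawn with matplotlib 3.10.9 in Python 3.11.15.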

Additional observations from a re-analysis of the deposited data

Results flagged for a closer look

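The change of the Dioxin difference between early days (1 to 6) and later days (8, 10, 27 and 39) passed the limma test for 15 of the 56 genes checked. Over all genes tested, 0.141% had a higher later difference and 0.0123% a lower one. Genes were named in part for large differences in fits that hold these same libraries, so the count among the 56 is a description. On the log2 scale the later difference was higher by 2.02 for CD74, 1.66 for HLA-DQA1, 1.63 for HLA-DPA1, 1.55 for HLA-DRB5, 1.48 for HLA-DRB1 and 1.39 for HLA-DRA, all genes of MHC class II. It was higher by 1.06 for CIITA, their coactivator, and by 0.85 for AHRR. It was higher by 0.91 for CPAMD8, 0.85 for SCNN1B, 0.76 for CCDC3, 0.54 for TBX3, 0.32 for HOXB8 and 0.17 for MMP27. For IGF2 the later difference was lower, at -0.85.

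Some single values stood far from the others of their group by Dixon's criterion, which chance gives in about 1 of 20 groups. There were 6 such values, 5.26% of the groups tested, about the share chance gives. The Dioxin deviation of DNAJC17 was -0.25 on day 1 and that of EFNB1 was -0.32 on day 3, each the lowest of days 1 to 6. HSP90AB1 deviated by -0.17 on day 21, a library with a trend over transcript length. UGT1A6, at trace levels, deviated by -0.0739 on day 1 and by -0.0299 on day 8. Among the non-toxic libraries of day 8, ibuprofen had a length slope of -0.444.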

How the results depend on the processing

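No paired analysis was possible because the labels number no replicates: each compound has 1 well a day, and day is already a factor in every fit. Counts of called genes are given here as a percentage of the genes tested in limma. The comparisons had 24.2% over all days, 1.73% over days 1 to 6, 24.9% over days 8 to 39, 0.208% over all days and 0.141% over days 8 to 39 without days 15 and 21, 16.3% for later minus early days, and 0.153% for that contrast without days 15 and 21. Against the DMSO libraries alone, 1 library a day, these were 0.00613%, 0, 0, 0, 0, 0 and 0, with 1239 to 3363 genes at an unadjusted p under 0.05. Without the ibuprofen library of day 8 they were, days 1 to 6 aside, 43.8%, 50.2%, 1.08%, 0.294%, 39.2% and 0.429%. Without every library of a length slope below -0.15 they were 1.53%, 0.57%, 1.08%, 0.294%, 0.496% and 0.429%, and with the slope as a covariate 4.7%, 9.33%, 0.846%, 0.404%, 8.84% and 1.57%. Over days 1 to 6, centring gave 0.962% and the fit with no compound block 2.9%. Without days 15 and 21, log2(TPM + 0.1) gave 0.116% over all days and 0.0613% for later minus early. There log2(TPM + 5) gave 0.282% over days 8 to 39 and 0.355% for later minus early, the fit with no compound block 0.214% over days 8 to 39, and no filter 0.269% and a filter at 5 TPM 0.101% for later minus early. Among windows chosen after seeing the data, days 1 to 10 gave 0 calls and days 27 and 39 gave 2.98%.

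Leaving out 1 Dioxin library gave 0.619% (without day 15) to 38.4% (without day 8) over all days, 0.245% to 4.8% over days 1 to 6 and 0.515% to 44.6% over days 8 to 39. Without days 15 and 21 it gave 0.00613% (without day 39) to 0.392% over all days and 0 (without day 39) to 0.264% over days 8 to 39. For later minus early it gave 0.631% to 36.6% with those days and 0.0552% to 0.417% without them, and on days 27 and 39 it gave 0.288% to 7.4%. Over all days the difference of EP300 turned to 0.0513 and that of NCOA1 to 0.0106 with the slope as a covariate. That of HSP90AA1 turned to 0.0807 with centring, 0.0755 without the libraries of steep slope and 0.111 with the covariate. The cause was not tested. Depth is unknown, so values below 1 TPM carry little weight.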
